A study of Homo sapiens with 29 samples.

Results

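DHL6 is an established cell line of a human cancer of mature B cells, diffuse large B-cell lymphoma. The results below concern DHL6 cells that had received R406 at 1 µM for 24 h, set against DHL6 cells that had received only DMSO, the solvent of the drug. By sample title these are 3 arrays of R406 at 24 h and 3 arrays of DMSO, 6 of the 29 arrays of the study. The study also held R406 at 2, 6 and 48 h in DHL6 and the same plan in DHL4, another line of the same lymphoma, where DMSO has 2 arrays here. Cells grew in RPMI medium with serum and glutamine, and no other agent is named in the labels. No time is labelled for the DMSO arrays, so 24 h of drug and 24 h of culture cannot be told apart. Whether the replicates were grown as separate cultures is not labelled. Each p-value therefore measures the spread among arrays of a group, possibly only technical, and 3 arrays a group limit precision. This spread was pooled over the groups of all 29 arrays, so it is not that of the 6 arrays alone.

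R406 inhibits SYK, a tyrosine kinase that binds the phosphorylated tails of CD79A and CD79B, the signalling chains of the B-cell receptor. From SYK the signal passes through adaptor proteins to calcium and protein kinase C, to the ERK and NF-kB pathways, and through PI3 kinase to AKT. AKT keeps FOXO transcription factors out of the nucleus and promotes growth, sterol synthesis and cell division. Some B-cell lymphomas depend on this signal for survival, which is the question behind treating them with a SYK inhibitor. R406 also inhibits other kinases.

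RNA was measured on a short-oligonucleotide array. The deposited values are log2 expression, in which 1 unit is a 2-fold difference, and they ran from 1.99 to 13.49. Within a group the arrays correlated across 12165 genes at r between 0.992 and 0.993 at 24 h and between 0.995 and 0.996 in DMSO. A 24 h and a DMSO array correlated at r between 0.976 and 0.979, and no array pair of the study held identical values (0 pairs). Of the 12165 genes, 6919 (56.9%) had mean log2 values below 4 in both groups, near the lower end, where the method pulls signals together and folds are understated. The line's B-cell identity was visible in both groups. The 11 measured pan-B-cell markers averaged between 7.40 and 7.44 per array at 24 h and between 7.83 and 7.91 in DMSO. All 10 markers of monocytes and macrophages and all 12 of fibroblasts and endothelium had group means below 4 in both groups. The same held for 10 of 11 T-cell markers, and the exception was LCK, a kinase that B-lymphoma cells can also express.

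After 24 h of R406, 1748 genes (14.4% of 12165) passed an adjusted p of 0.05 in limma, 754 of them higher (6.20%) and 994 lower (8.17%) than in DMSO. At least 2-fold changes were found for 181 of the higher and 222 of the lower genes. The median over all genes was 0.02 on the log2 scale, and 2960 genes had an unadjusted p below 0.05. In the text that follows, a gene rose or fell where it passed the adjusted p, and each change is a log2 difference of R406 minus DMSO ± its standard error from the model.

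The largest rise was in a core histone gene, H2BC8, which encodes histone H2B. Its log2 values were 7.28, 7.23 and 7.24 at 24 h and 2.95, 3.07 and 3.12 in DMSO. The rise of H2BC8 was 4.20 ± 0.34, or 18.4-fold (adjusted p = 1.66e-09). APOD, a secreted lipid-binding protein of the lipocalin family, stood at 7.83, 8.71 and 8.68 at 24 h and at 4.49, 4.08 and 4.65 in DMSO, a rise of 4.0 ± 0.27 (adjusted p = 1.16e-10). PRKCB encodes protein kinase C beta, the isoform that links the B-cell receptor to NF-kB. PRKCB had 8.51, 8.80 and 8.71 at 24 h and 5.01, 4.96 and 4.86 in DMSO, a rise of 3.73 ± 0.23, or 13.2-fold (adjusted p = 2.15e-11). PYHIN1, an interferon-inducible nuclear protein, had 7.50, 7.45 and 7.19 at 24 h and 3.90, 4.01 and 4.15 in DMSO, a rise of 3.36 ± 0.17. In these 4 genes the lowest 24 h array lay at least 3 log2 units above the highest DMSO array.

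The other genes among the 12 largest rises changed by between 2.86 and 3.31. They were H3C4 (histone H3), PHYH (a peroxisomal enzyme that starts the breakdown of phytanic acid), HRK (a death-promoting BCL2 family member), CHST15 (a sulphotransferase of chondroitin sulphate), CPTP (a ceramide-1-phosphate carrier), CSNK1E (casein kinase 1 epsilon), COL9A3 (a collagen chain) and MAD1L1 (a spindle checkpoint protein). Other probe sets of CSNK1E and HRK gave smaller differences, 0.83 for CSNK1E and 0.21 and 0.52 for HRK, the last 2 of which did not pass the test. Of these 12 genes, 4 had a DMSO mean below 4, so their folds are understated.

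The largest fall was in KMO, kynurenine 3-monooxygenase, an enzyme of tryptophan breakdown. KMO had 3.76, 3.21 and 3.28 at 24 h and 8.39, 8.43 and 8.37 in DMSO. The change was -4.98 ± 0.40, or 31.6-fold lower (adjusted p = 1.35e-09). Its other probe sets gave -1.51 and -4.43. PHACTR1, a regulator of actin and of protein phosphatase 1, had 2.95, 2.48 and 2.38 at 24 h and 6.18, 6.27 and 6.44 in DMSO, a change of -3.69 ± 0.22 (adjusted p = 1.43e-11). TNFRSF17, the receptor BCMA of late B-lineage cells, had 5.40, 4.91 and 5.03 at 24 h and 8.20, 8.20 and 8.24 in DMSO, a change of -3.10 ± 0.42 (adjusted p = 6.12e-06). In all 3 genes the groups lay far apart, and KMO and PHACTR1 were near the lower end of the scale after the drug.

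The remaining 9 of the 12 largest falls lay between -3.09 and -2.48. They included GPR18 (a G protein-coupled receptor), VPREB3 (a B-lineage relative of the surrogate light chain), PNOC (the nociceptin precursor), the SLAM family receptors SLAMF1 and LY9, LMO2 (a transcriptional adaptor of germinal centre B cells), LRRN3, MDFIC, and EGR1, the zinc-finger factor that receptor signals induce through ERK. EGR1 had 3.51, 3.22 and 3.5 at 24 h and 6.17, 6.05 and 5.76 in DMSO, a change of -2.58 ± 0.29 (adjusted p = 4.38e-07). A dimmer EGR1 probe set gave 0.47 and did not pass. Of the 12 largest falls, 8 had a 24 h mean below 4. For all 24 of these genes the 24 h and DMSO arrays did not overlap, which held for 4330 (35.6%) of all genes. That share stands beside every later mention of arrays or groups that did not overlap.

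**Figure D1:**
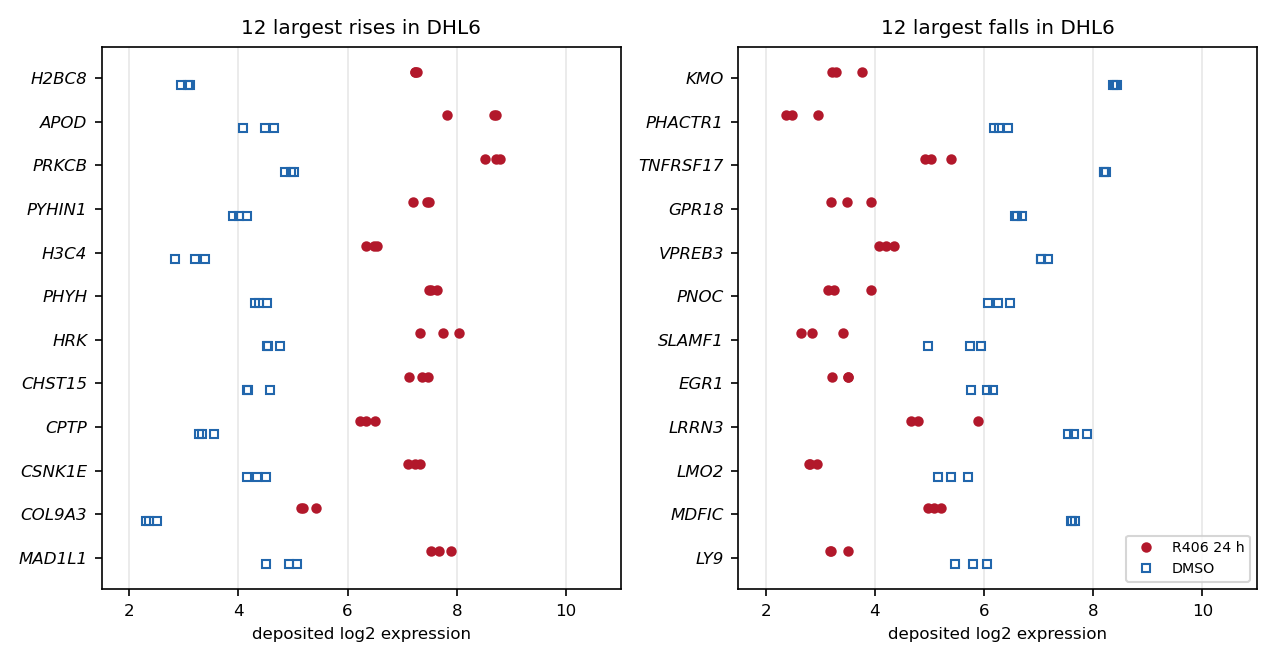
The log2 expression of the 12 genes that rose most and the 12 that fell most after 24 h of R406 in DHL6, with each point 1 array. The 3 arrays at 24 h and the 3 DMSO arrays stand apart for every gene, and many of the fallen genes end below 4, near the lower end of the scale.

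To describe which functions moved, 40 gene lists with 753 measured members were counted. Large shares of members lower at 24 h were found in cholesterol synthesis and uptake (14 of 20), DNA replication (21 of 36), heat shock (8 of 14), pan-B-cell markers (6 of 11) and MYC targets with ribosome synthesis (15 of 30), where 8.17% of all genes were lower. Germinal centre genes (9 of 19) and replication-dependent histones (7 of 15) held the largest shares of higher members, where 6.20% of all genes were higher. Lists tied to the receptor itself moved in both directions. Counts are given below by function, with the members' values, and are to be read beside these shares of all genes.

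**Figure D2:**
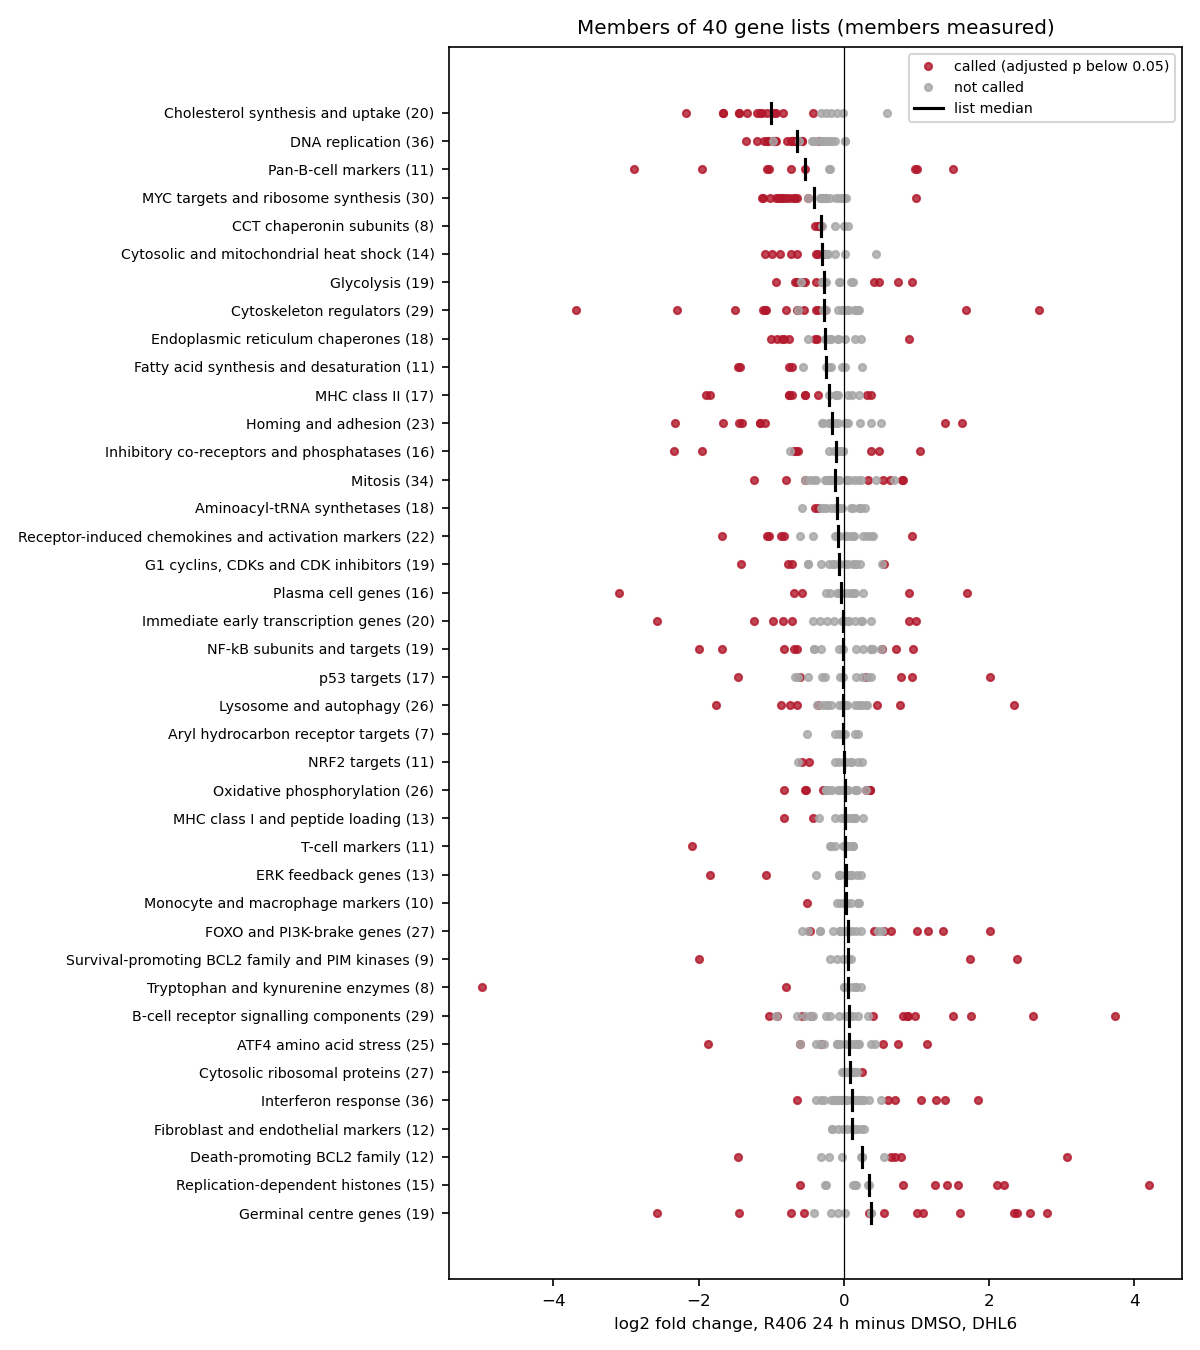
The log2 change at 24 h of R406 against DMSO in DHL6 for each measured member of the 40 gene lists, with points for genes, coloured where called by limma, and a bar at the list median. Cholesterol synthesis and DNA replication lie furthest to the left, with medians of -1.01 and -0.64, and germinal centre genes furthest to the right, with 0.38.

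Of 29 measured components of B-cell receptor signalling, 9 were higher and 4 lower at 24 h, with a median of 0.07. The target of the drug was among the genes that rose. SYK had 7.93, 7.73 and 7.65 at 24 h and 5.40, 5.23 and 4.84 in DMSO, a rise of 2.61 ± 0.17, or 6.11-fold (adjusted p = 6.51e-11), with no overlap of the arrays. Another SYK probe set gave 0.61. PIK3CD, the PI3 kinase catalytic subunit of lymphocytes, had 8.51, 8.34 and 8.34 at 24 h and 6.62, 6.74 and 6.58 in DMSO, a rise of 1.75 ± 0.12 (adjusted p = 1.80e-10), while another of its probe sets gave 0.22 and did not pass. The SRC family kinase BLK rose by 0.98 ± 0.11 (adjusted p = 2.51e-07), and its dimmer probe set gave 0.12 and did not pass. LYN, another kinase of this family that phosphorylates the receptor chains, rose by 0.40 and was chosen after its value was seen.

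The signalling chains of the receptor moved apart. CD79B had 10.35, 10.44 and 10.35 at 24 h and 8.89, 8.95 and 8.77 in DMSO, a rise of 1.51 ± 0.10 (adjusted p = 5.95e-11). CD79A had 8.53, 8.39 and 8.26 at 24 h and 9.41, 9.51 and 9.34 in DMSO, a change of -1.03 ± 0.13 (adjusted p = 1.89e-06). The groups overlapped for neither chain. RASGRP3, which activates RAS downstream of diacylglycerol, changed by -0.58 ± 0.10 (adjusted p = 1.38e-04), and the adaptor GRB2 by -0.45 ± 0.11 (adjusted p = 0.00686). NFATC1, a calcium-activated factor, changed by -0.92 (adjusted p = 0.00604) but by -0.74 (adjusted p = 0.0556) without DMSO array 1.

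Inhibitors of the receptor pathway numbered 3 higher and 5 lower of 16. Only 2 were higher when any 1 of the 6 arrays was left out, and 3 were lower without 24 h array 2. PTPN6 encodes SHP-1, the phosphatase that inhibitory co-receptors recruit. PTPN6 had 3.43, 3.5 and 3.79 at 24 h and 5.84, 5.99 and 5.91 in DMSO, a change of -2.34 ± 0.22, or 5.08-fold lower (adjusted p = 2.36e-08). CD72, an inhibitory co-receptor of B cells, had 3.81, 3.57 and 3.52 at 24 h and 5.51, 5.66 and 5.62 in DMSO, a change of -1.96 ± 0.16 (adjusted p = 3.08e-09). Both genes thus fell to near the lower end, with no array of either group in the range of the other. CSK, the kinase that switches off SRC family kinases, changed by -0.66 ± 0.16 (adjusted p = 0.00538). PTPRO, a receptor tyrosine phosphatase that can act on SYK, rose by 1.05 ± 0.12 (adjusted p = 2.71e-07), and its dimmer probe set gave -0.27 and did not pass. The kinase LCK, named above among the T-cell markers, is not one of these 16 inhibitors. LCK had 5.36, 5.27 and 5.60 at 24 h and 7.61, 7.46 and 7.43 in DMSO, a change of -2.09 ± 0.21 (adjusted p = 6.23e-08).

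Genes that the receptor signal is known to induce did not move as a block at 24 h. Of 20 immediate early genes, 2 were higher and 5 lower, with a median of -0.01. Beside EGR1, the fallen members were led by IER2, a rapidly induced nuclear protein, which had 6.51, 6.48 and 6.47 at 24 h and 7.71, 7.68 and 7.80 in DMSO, a change of -1.24 ± 0.11 (adjusted p = 1.03e-08). JUND, an AP-1 subunit, changed by -0.84 ± 0.14 (adjusted p = 8.73e-05), and SRF, the factor that drives many immediate early promoters, by -0.72 ± 0.17 (adjusted p = 0.00321). JUN, another AP-1 subunit, rose by 0.90 ± 0.16 (adjusted p = 2.29e-04) from a DMSO mean below 4. Dimmer probe sets of JUND, SRF and JUN gave between -0.06 and 0.28 and did not pass. MYC, the growth-promoting factor, had 10.36, 10.32 and 10.28 at 24 h and 9.35, 9.33 and 9.28 in DMSO, a rise of 1.00 ± 0.07 (adjusted p = 4.60e-10). MYC was thus 2-fold higher in every 24 h array, a value that rests on a single probe set.

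Of 13 genes of ERK feedback, 2 were lower and 0 higher, by limma. The called share of 15.4% was near the 14.4% of all genes, so the list as a whole did not stand out. DUSP2, a nuclear phosphatase of MAP kinases, had 4.41, 4.27 and 4.67 at 24 h and 6.30, 6.35 and 6.23 in DMSO, a change of -1.84 ± 0.24 (adjusted p = 3.37e-06). DUSP5, a phosphatase of nuclear ERK, changed by -1.07 ± 0.16 (adjusted p = 2.24e-05). DUSP2 was well apart between the groups, and DUSP5 was below 4 at 24 h.

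Among 22 chemokines and activation markers that the receptor induces, 5 were lower and 1 higher, and 0 were higher without any 1 of the 6 arrays. CD83, a surface marker of activated B cells, had 8.72, 8.69 and 8.84 at 24 h and 10.50, 10.47 and 10.32 in DMSO, a change of -1.68 ± 0.12 (adjusted p = 1.75e-10). The cytokines TNF and LTA changed by -1.06 ± 0.19 (adjusted p = 1.98e-04) and -1.03 ± 0.13 (adjusted p = 4.10e-06), and the chemokine CCL4 by -0.87 ± 0.15 (adjusted p = 1.01e-04). TNF, LTA and CCL4 were dim, with 24 h means below 4, whereas CD83 stood well inside the scale in every array.

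Of 19 NF-kB subunits and targets, 3 were higher and 5 lower. Without 24 h array 1, 24 h array 3 or DMSO array 1 only 1 was higher, and without 24 h array 1 or DMSO array 1 or 2 only 3 were lower. BCL2A1, a survival protein of the BCL2 family, had 2.03, 2.59 and 2.63 at 24 h and 4.51, 4.26 and 4.45 in DMSO, a change of -1.99 ± 0.22 (adjusted p = 2.51e-07). TNFAIP3, the A20 brake on NF-kB, changed by -0.82 ± 0.18 (adjusted p = 0.00165). NFKBIA, which encodes the inhibitor I-kappa-B alpha and is itself an NF-kB target, rose by 0.95 ± 0.11 (adjusted p = 4.59e-07). The list therefore held targets that moved in opposite directions.

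The largest change among death-promoting genes was that of HRK, a BH3-only protein that binds survival members of the BCL2 family. HRK had 7.74, 7.32 and 8.04 at 24 h and 4.53, 4.55 and 4.77 in DMSO, a rise of 3.08 ± 0.23, or 8.45-fold (adjusted p = 3.79e-10), with no overlap of arrays. PMAIP1 (NOXA), also a BH3-only gene, had 8.58, 8.42 and 8.46 at 24 h and 7.74, 7.74 and 7.61 in DMSO, a rise of 0.79 ± 0.12 (adjusted p = 4.22e-05), while its other probe set gave 0.36 and did not pass. In all, 4 of 12 death-promoting family members were higher and 1 lower, and 2 were lower without 24 h array 2. BCL2L11, which encodes BIM, rose by 0.65 (adjusted p = 0.0135), but the adjusted p was 0.0692 without 24 h array 1 and 0.0532 without DMSO array 3. BAX, an executor of mitochondrial permeabilisation, had 5.49, 4.62 and 4.6 at 24 h and 6.07, 6.33 and 6.70 in DMSO, a change of -1.46 ± 0.27 (adjusted p = 3.67e-04), while its other probe set gave -0.82 and did not pass.

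Among 9 survival members and PIM kinases, 2 were higher and 1, BCL2A1, lower. Both higher members were PIM kinases, short-lived serine kinases that share substrates with AKT. PIM1 had 8.13, 8.19 and 8.06 at 24 h and 5.71, 5.84 and 5.66 in DMSO, a rise of 2.39 ± 0.18, or 5.24-fold (adjusted p = 5.02e-10). PIM2 had 5.03, 5.23 and 4.90 at 24 h and 3.24, 3.32 and 3.38 in DMSO, a rise of 1.74 ± 0.14 (adjusted p = 1.01e-09). Neither kinase showed any overlap between groups.

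Of 27 FOXO targets and brakes on PI3 kinase, 7 were higher and 1 lower at 24 h, with a median of 0.06, and 2 were lower without 24 h array 3. GADD45A, a stress-induced growth arrest gene, had 7.68, 7.84 and 7.15 at 24 h and 5.56, 5.46 and 5.63 in DMSO, a rise of 2.01 ± 0.23 (adjusted p = 5.79e-07). PIK3IP1, a membrane inhibitor of PI3 kinase, rose by 1.37 ± 0.22 (adjusted p = 7.35e-05), and TRIB2, a pseudokinase and FOXO target, by 1.16 ± 0.23 (adjusted p = 7.11e-04). PIK3IP1's other probe set gave 0.20 and did not pass. FOXO1, a transcription factor that AKT holds out of the nucleus, had 8.25, 8.46 and 8.30 at 24 h and 7.97, 7.88 and 7.90 in DMSO, a rise of 0.41 ± 0.12 (adjusted p = 0.0145). The adjusted p for FOXO1 was 0.0857 without 24 h array 2 and 0.0569 without DMSO array 2. Another FOXO1 probe set gave -0.20 and did not pass. FOXO3 rose by 1.01 ± 0.25 (adjusted p = 0.00547) on its brightest probe set, and its others did not pass. TXNIP, a brake on glucose uptake, differed by -0.05 ± 0.16 (adjusted p = 0.912), and KLF2, a quiescence factor near the lower end, by -0.15 ± 0.16 (adjusted p = 0.685).

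Sterol synthesis moved in a single direction. Of the 20 genes measured in cholesterol synthesis and uptake, 14 were lower and 0 higher by limma, with a median of -1.01. HMGCS1, which makes the substrate of the rate-limiting reductase, had 7.0, 6.89 and 7.0 at 24 h and 9.28, 9.18 and 8.97 in DMSO, a change of -2.18 ± 0.14, or 4.53-fold lower (adjusted p = 4.98e-11). Another HMGCS1 probe set gave -4.11. DHCR7, the last enzyme of the pathway, had 6.10, 5.87 and 6.00 at 24 h and 7.65, 7.72 and 7.62 in DMSO, a change of -1.67 ± 0.21 (adjusted p = 1.61e-06). The arrays of both groups did not overlap for either gene. IDI1, the isomerase of isoprenoid units, changed by -1.45 ± 0.15 (adjusted p = 1.10e-07), ACAT2, the thiolase at the start of the pathway, by -1.45 ± 0.13 (adjusted p = 1.45e-08), and SC5D, a sterol desaturase, by -1.66 ± 0.24 (adjusted p = 1.07e-05), where another SC5D probe set gave 0.08. SREBF2, the factor that drives these genes, differed by -0.01 ± 0.22 (adjusted p = 0.983), so the message of the factor was not detectably different. The sterol regulatory core TCACNCCAC was present on either strand in the promoter windows of 1 of 18 listed genes (5.56%), against 313 of 27305 promoters (1.15%), and in 0 of the 12 windows of called genes, which says only that these letters are not in those windows.

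In fatty acid synthesis and desaturation 4 of 11 were lower and 0 higher by limma. SCD, the desaturase that makes oleic acid, had 8.87, 8.88 and 8.80 at 24 h and 10.35, 10.26 and 10.24 in DMSO, a change of -1.43 ± 0.13 (adjusted p = 7.82e-09), with -1.64, -1.51 and -1.97 for its other probe sets. FASN, the fatty acid synthase, had 4.61, 4.62 and 4.82 at 24 h and 6.29, 6.26 and 5.88 in DMSO, a change of -1.46 (adjusted p = 1.24e-05), but another probe set gave 0.14. ACLY, which supplies acetyl-CoA from citrate, changed by -0.75 ± 0.11 (adjusted p = 1.24e-05), and FADS2, a desaturase of polyunsaturated fatty acids, by -0.72 ± 0.15 (adjusted p = 0.00158). SCD and ACLY showed the fall on bright signals, FADS2 on a dim one.

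Genes of growth were often lower at 24 h, while MYC itself was higher. Of 30 MYC targets and genes of ribosome synthesis, 15 were lower and 1 higher, with a median of -0.41, and between 11 and 14 were lower when any 1 of the 6 arrays was left out. UTP20, a protein of the small-subunit processome, had 5.38, 4.89 and 4.96 at 24 h and 6.43, 6.10 and 6.09 in DMSO, a change of -1.13 ± 0.23 (adjusted p = 0.00110). EIF5A, a translation factor that carries hypusine, had 8.57, 8.46 and 8.26 at 24 h and 9.10, 9.18 and 10.07 in DMSO, a change of -1.02 (adjusted p = 5.93e-05), while its other probe sets gave -0.29 and -0.18 and did not pass. GAR1, of the pseudouridylation complex, changed by -0.90 ± 0.15 (adjusted p = 1.36e-04). The arrays did not overlap for any of these 3 genes, and DMSO array 3 was the highest of EIF5A. AMD1, an enzyme of polyamine synthesis, changed by -1.11 ± 0.29 (adjusted p = 0.00800). Of 27 cytosolic ribosomal proteins, by contrast, 1 was higher and 0 lower by limma, with a median of 0.08.

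The E-box CACGTG, the site that MYC binds with MAX, reads the same on both strands. It was present in 9 of 24 promoter windows of this list (37.5%), against 2030 of the 27305 RefSeq promoters (7.43%), each 250 bases before to 50 after the gene's start. It was found in 5 of 13 windows of called members (38.5%) and in 4 of 11 of members not called (36.4%). LDHA, lactate dehydrogenase A, is shown because it carries the letters more than once. LDHA had 11.33, 11.31 and 11.26 at 24 h and 11.98, 11.93 and 11.92 in DMSO, a change of -0.64 ± 0.11 (adjusted p = 1.31e-04). Its window upstream of the start lies at chr11:18394358-18394501 of GRCh38.p14, plus strand, with the E-boxes in capitals:
LDHA: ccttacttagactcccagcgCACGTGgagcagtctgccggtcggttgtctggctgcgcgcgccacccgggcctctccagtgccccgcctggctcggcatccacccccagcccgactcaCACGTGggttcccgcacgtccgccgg
The match is a description of these letters and not a measured binding site.

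Chaperones, which fold the newly made proteins, were lower in several compartments. Of 14 cytosolic and mitochondrial heat shock genes 8 were lower and 0 higher by limma, and 1 was higher without 24 h array 2. HSPA8, the constitutive HSP70, had 10.75, 10.74 and 10.82 at 24 h and 11.87, 11.70 and 11.70 in DMSO, a change of -0.99 ± 0.11 (adjusted p = 1.95e-07). DNAJB1, an HSP40 co-chaperone, changed by -1.08 ± 0.16 (adjusted p = 1.65e-05), and HSPA9, the mitochondrial HSP70, by -0.88 ± 0.19 (adjusted p = 0.00148). In the endoplasmic reticulum 7 of 18 chaperones were lower and 1 higher. HSPA5 (BiP) had 9.03, 8.97 and 9.07 at 24 h and 9.99, 10.06 and 9.99 in DMSO, a change of -1.0 ± 0.09 (adjusted p = 1.45e-08). HSPA8 and HSPA5 were thus about 2-fold lower in each 24 h array than in each DMSO array. XBP1, the factor of the unfolded protein response, rose by 0.90 ± 0.16 (adjusted p = 2.80e-04). Of 8 subunits of the CCT chaperonin, which folds actin and tubulin, 4 were lower, and 2 were lower without 24 h array 2 or DMSO array 1. Their median was -0.31, and -0.19 under quantile normalization.

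Of 19 glycolysis genes, 7 were lower and 4 higher, and 2 were higher without 24 h array 1, 24 h array 3, DMSO array 1 or DMSO array 2. ALDOC, an aldolase, changed by -0.93 ± 0.19 (adjusted p = 0.00111). PFKP, the platelet-type phosphofructokinase, had 8.02, 8.21 and 8.21 at 24 h and 7.26, 7.19 and 7.19 in DMSO, a rise of 0.94 ± 0.13 (adjusted p = 1.10e-05). The list therefore contained enzymes that moved in opposite directions.

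Genes of DNA replication and of mitosis are given side by side. Of 36 replication genes, 21 were lower and 0 higher by limma, with a median of -0.64, and between 14 and 20 were lower when any 1 of the 6 arrays was left out. Of 34 mitosis genes, 5 were higher and 3 lower, with a median of -0.11. The difference between the lists was not tested.

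The promoters of replication genes often hold the site of the E2F factors, which switch these genes on as cells enter S phase. TTTCCCGC or TTTGGCGC, on either strand, was present in 16 of 32 replication promoters of the RefSeq table (50%), against 631 of 27305 in all (2.31%). It was found in 11 of 19 windows of called genes (57.9%) and in 5 of 13 of genes not called (38.5%). The windows of 4 genes that fell are shown upstream of their starts in GRCh38.p14, with the E2F letters in capitals. Of these, PCNA, RFC3 and MCM6 were chosen after their values were seen. TYMS lies at chr18:657594-657641 (plus strand), PCNA at chr20:5126654-5126701 (minus strand), RFC3 at chr13:33818074-33818121 (plus strand) and MCM6 at chr2:135876506-135876615 (minus strand).
TYMS: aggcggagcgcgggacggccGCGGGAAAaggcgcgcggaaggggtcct
PCNA: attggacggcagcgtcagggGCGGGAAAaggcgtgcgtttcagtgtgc
RFC3: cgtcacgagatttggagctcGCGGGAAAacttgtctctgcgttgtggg
MCM6: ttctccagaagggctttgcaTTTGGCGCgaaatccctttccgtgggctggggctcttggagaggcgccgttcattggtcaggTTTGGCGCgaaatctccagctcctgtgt
TYMS, PCNA and RFC3 hold the same letters within the 60 bases before their starts, and MCM6 holds the other form more than once.

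TYMS, thymidylate synthase, had 9.43, 9.28 and 9.43 at 24 h and 10.65, 10.62 and 10.48 in DMSO, a change of -1.20 ± 0.16 (adjusted p = 4.38e-06), while its other probe set gave -0.25 and did not pass. PCNA, the sliding clamp of DNA polymerase, had 9.27, 9.30 and 9.30 at 24 h and 10.12, 10.02 and 10.08 in DMSO, a change of -0.78 ± 0.12 (adjusted p = 3.29e-05). RFC3, a subunit of the clamp loader, changed by -0.71 ± 0.10 (adjusted p = 1.95e-05), and MCM6, of the replicative helicase, by -0.61 ± 0.13 (adjusted p = 0.00120). For all 4 genes with printed windows the arrays did not overlap, which held for 35.6% of all genes. These 4 were taken from the genes that fell, so their non-overlap adds little. MCM10, which activates the helicase, had 4.56, 4.38 and 4.08 at 24 h and 5.63, 5.72 and 5.72 in DMSO, a change of -1.35 ± 0.28 (adjusted p = 0.00111). GINS1, of the helicase complex, had 6.90, 6.93 and 6.74 at 24 h and 7.96, 7.97 and 7.92 in DMSO, a change of -1.10 ± 0.17 (adjusted p = 3.36e-05). RRM2, the regulated subunit of ribonucleotide reductase, had 9.26, 9.13 and 9.12 at 24 h and 10.22, 10.28 and 10.20 in DMSO, a change of -1.06 ± 0.16 (adjusted p = 2.85e-05). MCM10, GINS1 and RRM2 were thus about 2-fold lower or more. E2F1 itself differed by 0.01 and did not pass.

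Among mitosis genes, CDK1, the kinase that drives entry into mitosis, had 7.49, 7.41 and 7.39 at 24 h and 8.71, 8.75 and 8.54 in DMSO, a change of -1.24 ± 0.13 (adjusted p = 1.38e-07). The activator of the anaphase-promoting complex, CDC20, moved the other way. CDC20 had 8.63, 8.60 and 8.69 at 24 h and 7.88, 7.95 and 7.66 in DMSO, a rise of 0.81 ± 0.11 (adjusted p = 4.81e-06). CCNB2, a mitotic cyclin, had 9.12, 9.13 and 9.09 at 24 h and 8.32, 8.31 and 8.31 in DMSO, a rise of 0.80 ± 0.16 (adjusted p = 6.23e-04). CENPF, a kinetochore protein, rose by 0.64 ± 0.13 (adjusted p = 8.02e-04), but its dimmer probe sets gave 0.00 and 0.03 and did not pass. MKI67, the proliferation antigen Ki-67, changed by -0.53 ± 0.11 (adjusted p = 8.54e-04). Of 19 cyclins, kinases and inhibitors of G1, 3 were lower and 1 higher, and 0 were higher without 24 h array 1. CCNE2, cyclin E2, had 5.79, 5.59 and 5.81 at 24 h and 7.23, 7.17 and 7.04 in DMSO, a change of -1.41 ± 0.29 (adjusted p = 0.00103). CDK4, the partner of the D cyclins, changed by -0.72 ± 0.11 (adjusted p = 2.43e-05). CCND2, cyclin D2, was near the lower end in both groups and differed by 0.15 ± 0.16 (adjusted p = 0.649).

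Some replication-dependent histone genes were higher at 24 h. Genes of this family make core and linker histones in S phase, and their messages normally end in a stem-loop without a poly(A) tail. Of 50 such genes on the array, found by symbol after their values had been seen, 21 were higher and 1 lower, with a median of 0.30. By class, 6 of 11 H2A, 7 of 14 H2B, 5 of 9 H3 and 3 of 10 H4 genes were higher, and 0 of 6 H1 genes were higher by limma. In 44 of the 50 the DMSO mean lay below 4, and in 35 both means did. Of those with brighter DMSO means, H4C3 (-0.26) and H1-2 (-0.25) did not pass and H1-4 fell (-0.61). The fall of H1-4 was not called without 24 h array 2. The others of these, H2BC12, H2BC5 and H2AC6, rose. Genes of this family are near-identical in sequence, so a probe set may also read its relatives, and the split between members is uncertain. The labels do not name the priming method of the cRNA, and its part in the histone signals was not tested.

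Promoters of these genes carry CCAAT and TATA boxes close to the start. CCAAT, on either strand, was present in 13 of 14 promoter windows of the listed histones (92.9%), against 9747 of 27305 (35.7%), and in 8 of 8 windows of called members and 5 of 6 of those not called. TATAAA, a motif added after values were seen, was present in 10 of 14 (71.4%), against 3264 of all promoters (12%), and in 8 of 8 windows of called members and 2 of 6 of those not called. The 8 called members were 7 that rose and H1-4, which fell. The windows of 3 risen genes are shown, upstream of their starts in GRCh38.p14, with CCAAT or its reverse ATTGG in capitals. H2BC8 lies at chr6:26216742-26216876 (minus strand), H2BC5 at chr6:26157934-26158072 (plus strand) and H2AC6 at chr6:26123980-26124128 (plus strand).
H2BC8: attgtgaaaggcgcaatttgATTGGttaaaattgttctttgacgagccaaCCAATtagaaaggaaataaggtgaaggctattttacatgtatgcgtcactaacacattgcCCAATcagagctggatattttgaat
H2BC5: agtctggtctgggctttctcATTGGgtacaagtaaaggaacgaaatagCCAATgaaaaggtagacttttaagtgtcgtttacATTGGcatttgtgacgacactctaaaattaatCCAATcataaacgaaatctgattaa
H2AC6: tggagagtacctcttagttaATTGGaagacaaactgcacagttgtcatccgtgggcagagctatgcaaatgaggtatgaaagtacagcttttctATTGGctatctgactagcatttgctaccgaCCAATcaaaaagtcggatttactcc
H2BC8 shares its window with H2AC8, a histone H2A gene on the other strand, and the starts of the 2 genes are 233 bases apart.

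Both genes of that shared window rose. H2AC8 had 4.61, 4.71 and 4.49 at 24 h and 3.03, 3.0 and 3.07 in DMSO, a rise of 1.57 ± 0.19 (adjusted p = 1.08e-06), beside the 4.20 ± 0.34 of H2BC8. H3C4 had 6.54, 6.48 and 6.34 at 24 h and 3.38, 3.21 and 2.84 in DMSO, a rise of 3.31 ± 0.25 (adjusted p = 8.38e-10). H2AC6 had 6.38, 6.31 and 6.25 at 24 h and 4.22, 4.26 and 3.84 in DMSO, a rise of 2.20 ± 0.21 (adjusted p = 2.18e-08). In none of these genes did the groups overlap. H2BC5 had 7.05, 7.01 and 6.88 at 24 h and 4.79, 4.86 and 4.97 in DMSO, a rise of 2.11 ± 0.27 (adjusted p = 3.45e-06). H2BC12 had 7.85, 7.60 and 7.75 at 24 h and 6.27, 6.33 and 6.33 in DMSO, a rise of 1.42 ± 0.20 (adjusted p = 1.05e-05). Other probe sets gave 2.32 for H2BC8 and 1.76 for H3C4.

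**Figure D3:**
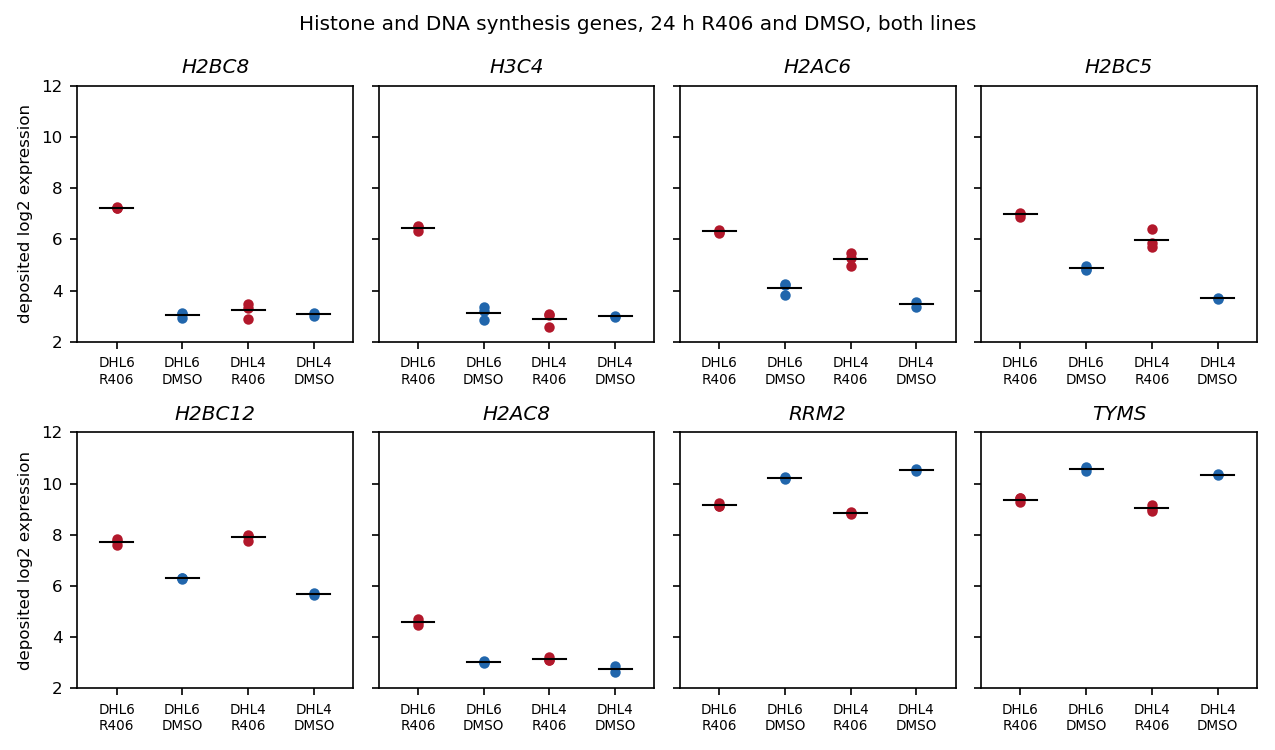
The log2 expression of 6 histone genes and of RRM2 and TYMS in each array of R406 at 24 h and of DMSO, in DHL6 and in DHL4, with points for arrays and bars for group means. H2BC8 and H3C4 stand high only in the DHL6 arrays at 24 h, whereas H2BC5 and H2BC12 are higher with R406 in both lines and RRM2 and TYMS lower in both.

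Genes of the germinal centre, the site where B cells mutate and select their receptors, were more often higher than lower. Of 19 measured, 9 were higher and 4 lower, with a median of 0.38. TCL1A, a coactivator of AKT in germinal centre and naive B cells, had 9.69, 9.67 and 9.74 at 24 h and 7.22, 7.31 and 6.89 in DMSO, a rise of 2.56 ± 0.13, or 5.89-fold (adjusted p = 4.94e-13). MME, the surface peptidase CD10, had 7.78, 7.78 and 7.83 at 24 h and 5.63, 5.46 and 5.11 in DMSO, a rise of 2.39 ± 0.11, or 5.26-fold (adjusted p = 4.11e-13). BACH2, a repressor that holds back plasma cell differentiation, had 7.46, 7.56 and 7.84 at 24 h and 5.67, 4.91 and 5.22 in DMSO, a rise of 2.35 ± 0.15 (adjusted p = 2.21e-11). These 3 genes stood well above the lower end in both groups, with no overlap. SMAD1, a mediator of BMP and TGF-beta signals, had 5.68, 6.00 and 4.79 at 24 h and 2.62, 2.76 and 2.71 in DMSO, a rise of 2.80 ± 0.28 (adjusted p = 6.22e-08), while another SMAD1 probe set gave 0.16 and did not pass.

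The other germinal centre members moved in both directions or did not pass. LMO2, listed among the largest falls, had 2.81, 2.79 and 2.94 at 24 h and 5.40, 5.71 and 5.15 in DMSO, a change of -2.57 ± 0.17 (adjusted p = 1.04e-10). RGS13, a brake on chemokine receptors of germinal centre cells, changed by -1.44 ± 0.14 (adjusted p = 4.22e-08). NEIL1, a DNA glycosylase, rose by 1.60 ± 0.24 (adjusted p = 3.01e-05), and POU2AF1, the coactivator OBF-1, by 1.01 ± 0.08 (adjusted p = 2.94e-09). BCL6, the master repressor of the germinal centre, had 9.43, 9.28 and 9.27 at 24 h and 9.34, 9.29 and 9.30 in DMSO, a difference of 0.02 ± 0.12 (adjusted p = 0.969), so the arrays overlapped.

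Of 16 plasma cell genes, 2 were higher and 3 lower. IRF4 differed by -0.09 ± 0.26 (adjusted p = 0.902), and PRDM1, the driver of plasma cell differentiation, by -0.24 ± 0.10 (adjusted p = 0.101) near the lower end. CD27, a TNF receptor family member of memory and plasma cells, had 8.70, 8.54 and 8.52 at 24 h and 6.99, 6.77 and 6.90 in DMSO, a rise of 1.70 (adjusted p = 2.53e-10). Of 11 pan-B-cell markers, 3 were higher and 6 lower, with a median of -0.53. MS4A1, which encodes CD20, had 10.54, 10.69 and 10.60 at 24 h and 11.68, 11.64 and 11.70 in DMSO, a change of -1.06 ± 0.09 (adjusted p = 5.38e-09). So CD20 message was about 2-fold lower in every 24 h array, on a bright signal in both groups.

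In antigen presentation, 8 of 17 MHC class II genes were lower and 2 higher, and the higher count was 0 or 1 without 24 h array 2 or 3 or DMSO array 2 or 3. IFI30, a lysosomal thiol reductase that opens antigens for class II loading, had 9.39, 9.30 and 9.29 at 24 h and 11.15, 11.28 and 11.07 in DMSO, a change of -1.84 ± 0.12 (adjusted p = 6.01e-11). HLA-DOB, a modulator of peptide loading in B cells, had 4.36, 3.69 and 4.77 at 24 h and 6.32, 6.18 and 6.04 in DMSO, a change of -1.90 ± 0.33 (adjusted p = 1.43e-04). The groups did not overlap for either gene. CIITA, the activator of class II genes, was near the lower end and differed by 0.06 ± 0.17 (adjusted p = 0.904).

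Of 23 genes of homing and adhesion, 7 were lower and 2 higher. ITGAL, the alpha chain of the integrin LFA-1, had 3.90, 3.95 and 3.87 at 24 h and 6.32, 6.36 and 6.01 in DMSO, a change of -2.32 ± 0.17 (adjusted p = 2.53e-10). ITGA4, the alpha chain of VLA-4, changed by -1.67 ± 0.23 (adjusted p = 7.91e-06). CXCR4, the receptor that draws B cells to stroma and to the dark zone of the germinal centre, had 10.89, 10.84 and 10.89 at 24 h and 9.32, 9.25 and 9.18 in DMSO, a rise of 1.63 ± 0.12 (adjusted p = 3.36e-10). ITGAL was thus lower and CXCR4 higher in each 24 h array than in each DMSO array. ITGB1, the integrin beta 1 chain that pairs with ITGA4, was the other member that rose, with 5.91, 5.07 and 6.00 at 24 h and 4.62, 4.39 and 3.78 in DMSO, a rise of 1.40 ± 0.21 (adjusted p = 3.00e-05). Its dimmer probe sets gave between -0.04 and 0.08 and did not pass.

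Of 29 cytoskeleton regulators, 14 were lower and 2 higher, and 4 were higher without DMSO array 3. PLEK, pleckstrin, had 5.81, 5.55 and 5.75 at 24 h and 7.92, 8.04 and 8.07 in DMSO, a change of -2.30 ± 0.26 (adjusted p = 3.11e-07). LCP1, the actin bundler L-plastin, changed by -1.50 ± 0.15 (adjusted p = 3.79e-08), and CORO1A, coronin of leukocytes, by -1.08 ± 0.15 (adjusted p = 1.07e-05). The 2 members that rose were KANK2, an adaptor of adhesions, and RHOH, an atypical GTPase of lymphocytes. KANK2 had 8.45, 8.35 and 8.45 at 24 h and 5.65, 5.98 and 5.54 in DMSO, a rise of 2.69 ± 0.14, or 6.47-fold (adjusted p = 1.18e-12), where another probe set gave 0.45. RHOH had 8.49, 8.66 and 8.70 at 24 h and 6.99, 7.02 and 6.78 in DMSO, a rise of 1.69 ± 0.11 (adjusted p = 1.05e-10), and its dimmer probe sets gave 0.00 and 0.15. PHACTR1, named above among the largest falls, is also a member of this list.

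Of 36 interferon response genes, 6 were higher and 1 lower, and 0 were lower without 24 h array 1 or 3 or DMSO array 2 or 3. MX2, a dynamin-like antiviral protein, had 7.34, 7.25 and 7.32 at 24 h and 5.56, 5.46 and 5.34 in DMSO, a rise of 1.85 ± 0.15 (adjusted p = 3.24e-09). SP110, a nuclear body protein, rose by 1.40 ± 0.15 (adjusted p = 2.88e-07), and OAS1, which makes the activator of RNase L, by 1.27 ± 0.28 (adjusted p = 0.00205). With a median of 0.11, most members of the list did not pass. RUBCNL, a regulator of autophagosome fusion, had 10.68, 10.76 and 10.76 at 24 h and 8.36, 8.45 and 8.35 in DMSO, a rise of 2.34 ± 0.11, or 5.07-fold (adjusted p = 4.11e-13).

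DHL4 cells had received the same dose for the same time, with 3 arrays at 24 h and 2 of DMSO, and share no array with DHL6. More genes passed there, 3593 (29.5%), of which 1585 were higher and 2008 lower. These totals exceed the 754 higher and 994 lower genes of DHL6. The DHL4 counts of list members below are to be read beside them. Across the 12165 genes the changes of the lines correlated at r = 0.55, and at r = 0.70 over the 1748 genes called in DHL6, given as a description over genes. Of the 754 genes that rose in DHL6, 477 also rose in DHL4 (63.3% of the DHL6 genes and 30.1% of the DHL4 genes) and 31 fell. Of the 994 that fell in DHL6, 697 also fell in DHL4 (70.1% of the DHL6 genes and 34.7% of the DHL4 genes) and 57 rose. The response itself, tested as the DHL6 change minus the DHL4 change, differed for 1989 genes (16.4%), higher in DHL6 for 1138 (9.35%) and lower for 851 (7.00%). A higher value can mean a larger rise or a smaller fall in DHL6.

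**Figure D4:**
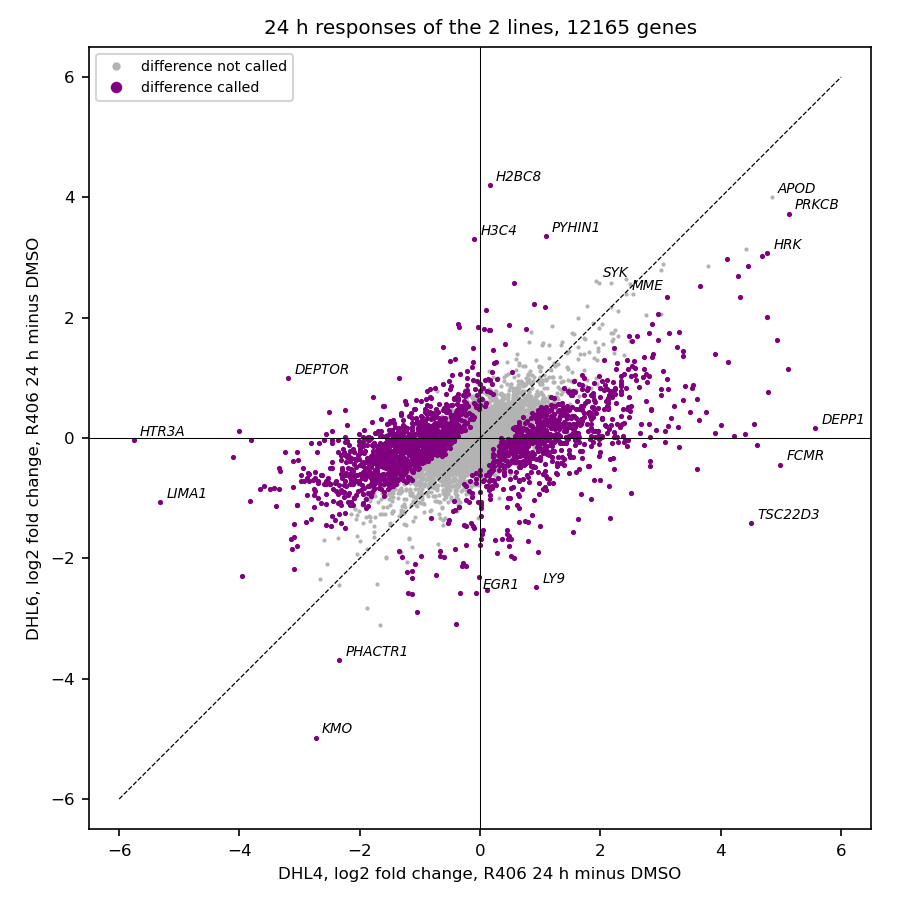
The log2 change at 24 h of R406 against DMSO in DHL6 and in DHL4, with each point 1 gene. Genes whose changes differed between lines are marked, among them H2BC8 (4.20 in DHL6 and 0.16 in DHL4) and TSC22D3 (-1.42 in DHL6 and 4.50 in DHL4).

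MYC moved in opposite directions in the lines. It changed by 1.00 ± 0.07 in DHL6 and by -1.34 in DHL4 (adjusted p = 2.42e-12), a difference of 2.34 ± 0.11 (adjusted p = 1.38e-13). In the list of MYC targets and ribosome synthesis, 15 of 30 were lower in DHL6 and 28 of 30 in DHL4, where the median was -1.89, and the difference was called higher in DHL6 for 25 and lower for 0 by limma. AMD1, for example, changed by -1.11 in DHL6 and by -3.05 in DHL4. In DNA replication, 21 of 36 were lower in DHL6 and 34 in DHL4, and the difference was higher in DHL6 for 22. MCM6 changed by -0.61 in DHL6 and by -2.63 in DHL4, a difference of 2.02 ± 0.19 (adjusted p = 2.12e-08). The mitosis list held 3 lower members in DHL6 and 25 in DHL4, with 18 of 34 differences higher in DHL6. CDC20 changed by 0.81 in DHL6 and by -0.84 in DHL4, a difference of 1.64 ± 0.16 (adjusted p = 3.92e-08). TYMS and CDK1 fell in both lines, with differences of 0.11 and 0.05 that did not pass.

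Of the 29 components of B-cell receptor signalling, the difference was called higher in DHL6 for 3 and lower for 8. CD79A changed by -1.03 in DHL6 and by 0.90 in DHL4, a difference of -1.92 (adjusted p = 5.32e-08). CD72 changed by -1.96 in DHL6 and by 0.52 in DHL4, a difference of -2.49 (adjusted p = 4.24e-08). CD83 changed by -1.68 in DHL6 and by 0.51 in DHL4, a difference of -2.19 (adjusted p = 1.86e-09). LY9 changed by -2.48 in DHL6 and by 0.93 in DHL4, a difference of -3.41 (adjusted p = 8.39e-07). All 4 are surface proteins of B cells whose message fell in DHL6 and not in DHL4. They are given as examples, and CD72, CD83 and LY9 are not among the 29 components. CD81, a surface protein among the 29, went the other way. It changed by 0.89 in DHL6 and by 0 in DHL4, a difference of 0.89 (adjusted p = 4.34e-05). PRKCB, also of the 29, rose in both lines, by 3.73 in DHL6 and 5.13 in DHL4. EGR1 changed by -2.58 in DHL6 and by -0.07 in DHL4, but its DHL4 DMSO mean was 3.23, where a fall could not be seen. SYK rose in both lines, by 2.61 in DHL6 and 1.93 in DHL4, and the difference of 0.68 did not pass (adjusted p = 0.0788). CD79B rose by 1.51 in DHL6 and 1.63 in DHL4.

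Of the 27 FOXO targets and PI3 kinase brakes, 7 were higher in DHL6 and 19 in DHL4, and 16 differences were lower in DHL6. GADD45A rose by 2.01 in DHL6 and by 4.77 in DHL4, a difference of -2.76 (adjusted p = 1.92e-06). PIK3IP1 rose by 1.37 in DHL6 and by 3.37 in DHL4. The homing receptor CXCR4, of another list, rose by 1.63 in DHL6 and 4.93 in DHL4, a difference of -3.30 (adjusted p = 2.04e-12). Of the histones, H2BC8 changed by 4.20 in DHL6 and 0.16 in DHL4 (adjusted p = 0.840), a difference of 4.04 ± 0.51 (adjusted p = 1.73e-06). H3C4 changed by 3.31 in DHL6 and -0.10 in DHL4, a difference of 3.41 ± 0.38 (adjusted p = 3.21e-07). Of the 50 histones, 21 were higher in DHL6 and 3 in DHL4, and 11 differences were higher in DHL6 and 0 lower by limma. Over all 12165 genes, 754 were higher in DHL6 and 1585 in DHL4. H2BC5 rose by 2.11 in DHL6 and 2.30 in DHL4, and H2BC12 by 1.42 in DHL6 and 2.22 in DHL4, a difference of -0.80 that did not pass (adjusted p = 0.0773).

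Of 20 cholesterol genes, 14 were lower in DHL6 and 14 in DHL4, and the difference was called higher in DHL6 for 8 and lower for 2. HMGCS1 changed by -2.18 in DHL6 and by -3.09 in DHL4, a difference of 0.91 (adjusted p = 0.00267), and DHCR7 by -1.67 in DHL6 and -3.15 in DHL4. Among germinal centre genes, MME rose by 2.39 in DHL6 and 2.42 in DHL4, and TCL1A by 2.56 in DHL6 and 2.49 in DHL4. BACH2 rose by 2.35 in DHL6 and 3.11 in DHL4, a difference of -0.76 (adjusted p = 0.0147), while CD38, an ectoenzyme of germinal centre B cells, rose by 1.09 in DHL6 and 0.53 in DHL4, a difference of 0.56 (adjusted p = 0.0122). Of the 19 members, the difference was called higher in DHL6 for 3 and lower for 5. MX2 rose by 1.85 in DHL6 and differed by -0.03 in DHL4, where both means lay below 4.

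Set beside the earlier and later R406 arrays of the same line, the 24 h response lay between those of 6 and 48 h in its number of genes. Against the same DMSO arrays 644 genes passed at 2 h, 1005 at 6 h, 1748 at 24 h and 2831 at 48 h. These comparisons share their DMSO arrays, so the direct contrasts between times are given. At 24 h 709 genes (5.83%) differed from 6 h, 401 higher (3.30%) and 308 lower (2.53%). With only these 6 arrays in the model the counts were 101 and 117. The total was 421 without 24 h array 1, 472 without 24 h array 2 and 434 without 24 h array 3, and without 6 h array 3 the higher count was 196. Against 48 h, 817 genes (6.72%) differed, 616 higher (5.06%) and 201 lower (1.65%). This last count moved between settings. The 48 h arrays correlated with each other at r between 0.978 and 0.983, and the part of this spread in the count was not tested. With only the arrays of both times in the model 26 were higher and 5 lower, and under quantile normalization 432 were higher and 362 lower. The total was 494 without 24 h array 1, 456 without 24 h array 3, 455 without 48 h array 1 and 1450 without 48 h array 2, and the lower count was 113 without 24 h array 2.

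The genes that rose most beyond their 6 h level were H2BC8, PRKCB, H3C4, CPTP and SMAD1, by between 2.26 and 3.80. PRKCB changed against DMSO by 0.33 at 2 h, 0.52 at 6 h, 3.73 at 24 h and 4.29 at 48 h, and its 24 h level exceeded the 6 h level by 3.21 (adjusted p = 2.60e-09). H2BC8 stood 3.80 above its 6 h level and 1.19 above its 48 h level. SYK changed by 0.37, 1.54, 2.61 and 2.84 at 2, 6, 24 and 48 h. KMO was lower from the start, by -2.34 at 2 h, -4.01 at 6 h, -4.98 at 24 h and -4.04 at 48 h, and HRK was higher, by 2.46, 2.31, 3.08 and 3.49. PRKCB was therefore a late change, and KMO and HRK had made most of theirs by 2 or 6 h.

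The genes that fell most below their 6 h level were CD83, CHAC1, SLC29A1, IRF4 and CTH. CD83 changed against DMSO by 0.71, 0.33, -1.68 and -1.59 at 2, 6, 24 and 48 h, and its 24 h level was lower than the 6 h level by 2.01 on the log2 scale (-2.01, adjusted p = 7.55e-11). IRF4 stood at 1.46 above DMSO at 6 h and at -0.09 at 24 h, a difference of -1.55 (adjusted p = 4.80e-04). CHAC1, which breaks down glutathione, changed by 1.77, 1.83, -0.09 and -0.03 at 2, 6, 24 and 48 h, and its 24 h level differed from the 6 h level by -1.92 (adjusted p = 5.36e-06). CTH, of cysteine synthesis, changed by 1.96, 2.00, 0.49 and -0.40. CHAC1 and CTH are targets of the stress factor ATF4, and both were back near DMSO at 24 h.

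Against 48 h, the called differences at 24 h with the largest size included MARCKS, PLK1, ITPR3, PILRB and ATF5, which were higher at 24 h, and CCR7, TXNIP, HEY1 and LRRN3, which were lower. MARCKS, a protein kinase C substrate at the membrane, was 2.42 higher at 24 h than at 48 h (adjusted p = 0.00231), with 6.29, 6.53 and 6.83 at 24 h and a spread of 5.32, 5.45 and 8.32 in DMSO. PLK1, a mitotic kinase, was 2.01 higher at 24 h than at 48 h (adjusted p = 2.51e-05), and its 24 h difference from DMSO of 0.69 did not pass (adjusted p = 0.0632). Of 34 mitosis genes, 27 were higher at 24 h than at 48 h and 0 lower by limma, where 5.06% of all genes were higher. With only the arrays of both times in the model, 26 of all 12165 genes were higher, so this list count rests on the pooled spread. The medians of the mitosis genes against DMSO were 0.18, 0.23, -0.11 and -0.96 at 2, 6, 24 and 48 h. Replication genes had medians of 0.11, -0.32, -0.64 and -1.07 at these times. CCR7, the receptor that guides B cells to T-cell zones, was lower at 24 h than at 48 h by -2.61 (adjusted p = 2.62e-08), and TXNIP by -1.72 (adjusted p = 5.06e-07). ITPR3, a calcium channel of the endoplasmic reticulum, was 1.93 higher at 24 h than at 48 h (adjusted p = 5.06e-07), PILRB, an activating receptor, 1.87 higher (adjusted p = 2.12e-06), and ATF5, a stress-response factor, 1.70 higher (adjusted p = 3.83e-04). HEY1, a Notch target, differed by -1.59 (adjusted p = 1.57e-04) and LRRN3 by -1.57 (adjusted p = 1.10e-04).

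**Figure D5:**
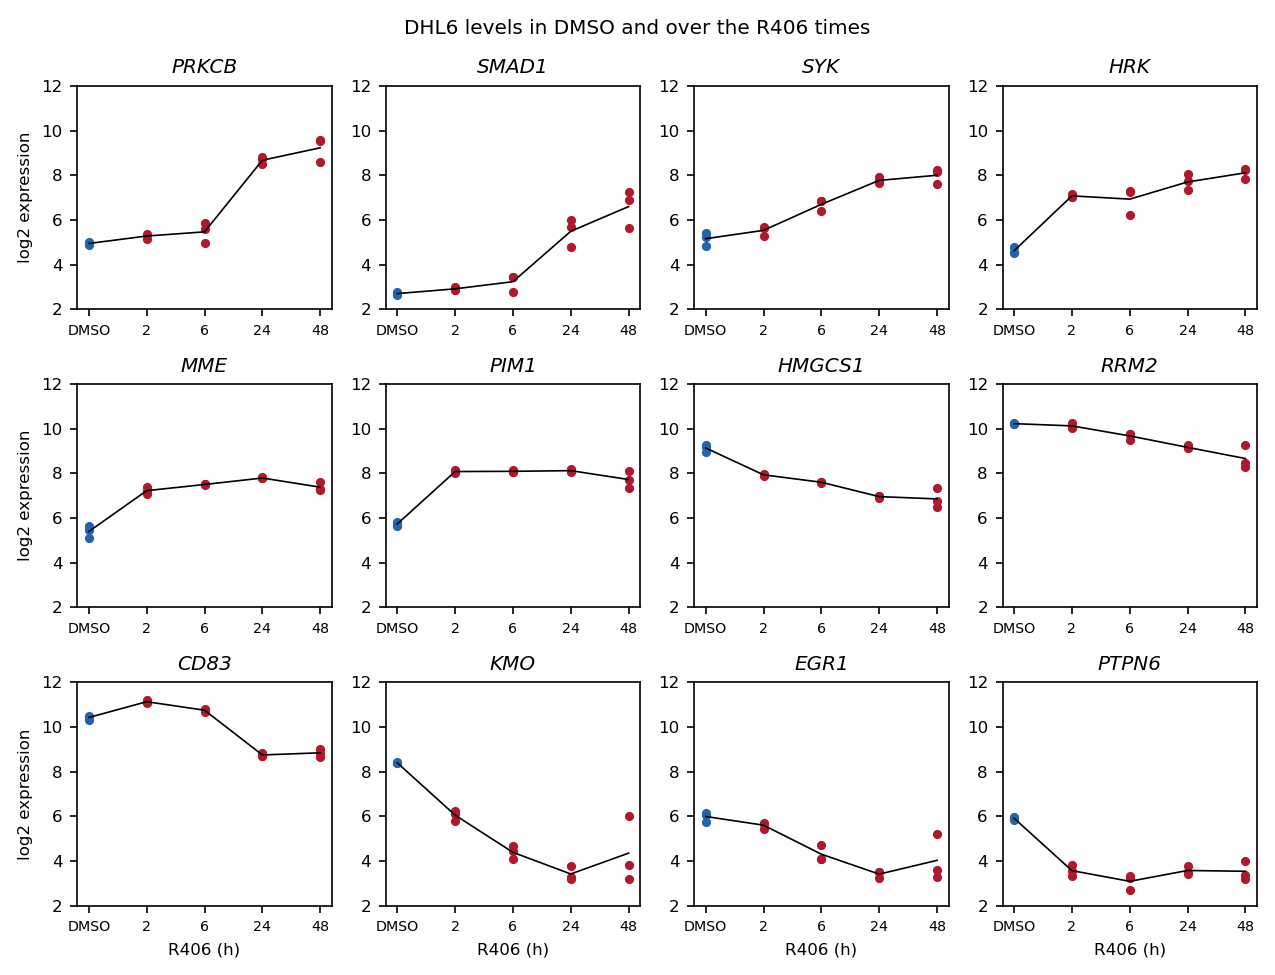
The log2 expression of selected genes in each DHL6 array by group, from DMSO through 2, 6, 24 and 48 h of R406, with points for arrays and lines for group means. PRKCB and SMAD1 stay near their DMSO level to 6 h and stand high at 24 h, CD83 is low from 24 h on, and KMO is low from 2 h on.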

How the data were processed

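The deposited values are log2 expression on an Affymetrix plate array. Per the submitters' processing notes the authors used RMA, whose version is not given in the sources used here. This method subtracts background, equalises the distributions of arrays and averages the probes robustly, which pulls dim signals together. Of 22277 probe sets, 19724 had a single symbol, 568 several, 1923 no listed gene, and 62 were controls. Symbols were updated through Entrez identifiers (19707 matched). For each of 12165 genes the probe set with the highest mean was used, and 4505 had more than 1.

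The 10 group means of all 29 arrays were fitted with limma 3.58.1 in R 4.3.3 (19 residual and 5.05 prior degrees of freedom), with Benjamini-Hochberg adjustment over all genes. The fit was tested on simulated data. Genes were named from the 12 largest called changes each way, up to 5 called members of each list in each direction, the 6 largest called differences between lines and the 5 largest between times each way, with SYK, HRK, BCL2L11, BCL6, MYC, EGR1, CCND2, KLF2, TXNIP, PTPN6, BACH2, LMO2, MME, CXCR4, PRKCB, XBP1, PRDM1, IRF4, CIITA, CYP1A1, SREBF2, FOXO1 and E2F1. Members, lists (846 genes named, 753 measured) and rules were chosen with earlier results of these data known. Some listed genes are not analysed here. Promoter letters come from RefSeq, GRCh38.p14. Alternatives covered the arrays in the model, scaling, filters, probe sets, the variance model, the threshold, a replicate block and leaving out each array. Whether replicate numbers pair arrays was checked by the correlation of same-numbered deviations, which was 0.03, -0.04 and 0.02, so they were not treated as pairs.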

Additional observations from a re-analysis of the deposited data

Results flagged for a closer look

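The response to 24 h of R406 differed between DHL6 and DHL4 for 1989 genes by the test of the difference itself, and the 6 largest differences in each direction are given here as values, DHL6 minus DHL4 on the log2 scale. Among the positive ones, H2BC8 differed by 4.04, through a rise in DHL6. DEPTOR, an inhibitor of mTOR, differed by 4.19, with a change of 1.00 in DHL6 (9.04, 9.04 and 9.08 at 24 h, and 8.12, 7.96 and 8.07 in DMSO) and of -3.19 in DHL4. LIMA1, an actin-binding protein, differed by 4.25, with -1.07 in DHL6 and -5.32 in DHL4. HTR3A (5.73), DCN (4.12) and USP2 (3.78) had DHL6 means below 4 in both groups, so their differences rest on falls in DHL4. USP2's other probe set differed by 0.11 between lines, and those of DCN by 0.98, 3.72 and 4.11.

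Among the negative ones, TSC22D3, a glucocorticoid-induced leucine zipper gene and FOXO target, differed by -5.92, with -1.42 in DHL6 (5.20, 5.70 and 5.43 at 24 h, and 6.99, 6.85 and 6.77 in DMSO) and 4.50 in DHL4, and by -2.06 on its other probe set. FCMR, the Fc receptor for IgM, differed by -5.43, with -0.44 in DHL6 (adjusted p = 0.310) and 4.99 in DHL4. DEPP1 (-5.41), PDE4B (-4.72), VPREB1 (-4.34) and PECAM1 (-4.32) had DHL6 means below 4 in both groups, and their differences rest on rises in DHL4. Groups of 3 arrays were too small to look for outlying arrays.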

How the results depend on the processing

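The 24 h count against DMSO (1748 genes, 754 higher and 994 lower) stayed within 1.5 times under other scalings, filters, probe set rules and sets of arrays, apart from a stricter adjusted p of 0.01 (1150 in all and 646 lower). Leaving out 1 array gave 1331 to 1517 genes, 584 to 643 higher and 737 to 885 lower. The line difference gave 560 lower genes at the stricter threshold, and 1532 to 1881 genes, 877 to 1075 higher and 589 to 807 lower without 1 array. The contrast with 6 h (709) gave 218 (101 higher, 117 lower) with only its own arrays in the model, 388 (208 and 180) with the 15 DHL6 arrays, 313 (175 and 138) at the stricter threshold, and 421 to 611 (196 to 396 and 180 to 286) without 1 array. The contrast with 48 h (817) gave 31 (26 and 5), 440 (358 and 82) and 350 (287 and 63) in the same order, and 455 to 1450 (320 to 1032 and 94 to 418) without 1 array, 362 lower under quantile normalization, 121 lower with arrays centred on their medians, and 948 higher over all probe sets. The share of higher genes in that contrast was 75.4%, and 54.4% under quantile normalization. The causes were not tested. Of 211 named genes called at 24 h, 152 kept their call and sign in every alternative, 59 lost the call in at least 1, and 0 changed sign. The alternatives kept each gene's probe set or used the mean of its probe sets, and none put another single probe set in its place. Some other probe sets had the opposite sign, among them those of EGR1 and FASN given above, so these counts do not cover that choice. Same-numbered arrays did not deviate together, so the replicate number marks no pairing known from the labels. With the replicate number as a block, 1697 genes were called at 24 h (727 and 970), 1879 in the line difference, 659 against 6 h and 751 against 48 h. Dim signals and 3 arrays a group limit what could be detected.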

Other observations

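Several further gene groups were counted at 24 h of R406 against DMSO in DHL6. Over all genes 6.20% were higher and 8.17% lower, shares that the smallest of these counts come near. In DHL4, 1585 of 12165 genes were higher and 2008 lower. Of 25 genes of the ATF4 amino acid stress response, 3 were higher and 3 lower, and 1 was lower without 24 h array 2 or DMSO array 1 or 2. DDIT4, an inhibitor of mTOR, had 5.40, 4.80 and 4.98 at 24 h and 7.06, 6.91 and 6.81 in DMSO, a change of -1.87 ± 0.16 (limma, adjusted p = 5.38e-09). SLC38A2, an amino acid carrier, had 7.82, 7.94 and 7.80 at 24 h and 6.65, 6.79 and 6.71 in DMSO, a rise of 1.14 ± 0.17 (adjusted p = 2.67e-05). These list members thus moved in opposite directions without overlap of arrays. Of 18 aminoacyl-tRNA synthetases 2 were lower, and 1 without 24 h array 3, whereas 13 were lower in DHL4. IARS1 changed by -0.40 in DHL6 and by -1.95 in DHL4, a difference of 1.54 ± 0.15 (adjusted p = 4.13e-08).

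Of 26 genes of oxidative phosphorylation, 4 were lower and 3 higher, and 1 was higher without 24 h array 1 or DMSO array 1. CYCS, cytochrome c, had 10.31, 10.28 and 10.36 at 24 h and 11.15, 11.12 and 11.18 in DMSO, a change of -0.83 ± 0.11 (adjusted p = 4.10e-06). Of 17 p53 targets, 4 were higher and 2 lower, and 2 were higher without 24 h array 1 or DMSO array 2 or 3. XPC, of nucleotide excision repair, rose by 0.79 ± 0.16 (adjusted p = 7.91e-04). Of 26 lysosome and autophagy genes, 3 were higher and 5 lower, and 3 were lower without 24 h array 3. SQSTM1, the autophagy receptor p62, changed by -0.74 ± 0.14 in DHL6 (adjusted p = 3.20e-04) and by 0.98 in DHL4, a difference of -1.72 ± 0.21 (adjusted p = 8.28e-07). Its dimmer probe sets gave 0.23, -0.07 and 0.06 in DHL6 and did not pass, with line differences of 0.11, 0.05 and -0.21.

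Of 7 targets of the aryl hydrocarbon receptor, 0 were called in DHL6 by limma, and 1 was lower without 24 h array 2, while 3 were higher in DHL4. CYP1A1, the receptor's best-known target, had 3.19, 3.31 and 3.25 at 24 h and 3.20, 3.37 and 3.37 in DMSO, a difference of -0.06 (adjusted p = 0.938). In DHL4 it rose by 2.29, and the responses differed by -2.35 (adjusted p = 6.50e-05).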
